A study of Mus musculus with 6 samples.

Results

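The angiopoietin and Tie receptor system was examined through 5 genes: the receptors Tek and Tie1, the ligands Angpt1 and Angpt2, and the phosphatase gene Ptprb. They were chosen by gene symbol, with earlier results of these data known, and each had 1 probe set among the 24704 named genes measured. Expression was profiled in RNA of whole mouse lung on single-colour Affymetrix arrays, 3 per group. Both groups carried floxed Nfat5 alleles, and all mice spent 7 days in hypoxia. The control mice, genotype Nfat5fl/fl, received the solvent miglyol. The knockout mice, Nfat5(EC)-/-, lack the osmosensitive transcription factor NFAT5 in endothelial cells. Their gene was ablated by intraperitoneal tamoxifen, 1 mg daily for 5 days. Ablation or solvent was given at 10 to 12 weeks of age, and a recovery of 2 to 3 weeks preceded the experiments. Genotype and tamoxifen therefore differ together and cannot be told apart. The labels do not name the promoter driving the recombinase, and both sexes were used. The series design names 4 mice per group and states that lung preparations were dropped for contaminating tissue or for a poor expression response to hypoxia.

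TEK (TIE2) is a receptor tyrosine kinase of endothelial cells. ANGPT1, secreted by mural and other mesenchymal cells, activates it, which keeps vessels quiescent and their junctions tight through AKT and the restraint of FOXO1. ANGPT2, stored and released by endothelial cells, acts as a weak, context-dependent ligand that can oppose ANGPT1. TIE1 is a related receptor without a classical ligand that forms complexes with TEK, and the phosphatase VE-PTP, the product of Ptprb, dephosphorylates TEK and associates with the junction protein VE-cadherin. In the adult lung, whose capillary bed is very large, this system is known for holding the endothelial barrier.

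Values are log2 expression from RMA, on a scale where every array has a median of 2.98 and a lower quartile of 2.02, with no detection calls. A difference of 1 on this scale is a doubling, and levels of different probe sets cannot be ranked against each other. Groups were compared with limma over all named genes, and a gene passed at a Benjamini-Hochberg adjusted p under 0.05. By that rule 25.5% of all genes differed: 13% of all genes were lower and 12.5% higher in the knockout. The groups did not overlap at 20% of genes with the knockout below and at 21.9% with the knockout above. The knockout arrays resembled one another less (correlations across genes of 0.916 to 0.939) than the controls did (0.968 to 0.970). The median snoRNA level did not overlap between groups (4.01 to 4.20 on control arrays, 6.43 to 7.43 on knockout arrays). Control replicate 1 differed from the other arrays in Xist (8.22, where the rest lay between 2.03 and 2.37). The part of both in the results below was not tested. Fits with each as a covariate are given at the end. The snoRNA level separates the groups, so its fit cannot tell it from group. Xist was high on 1 array alone, so its fit nearly repeats leaving out control replicate 1. Nfat5 itself fell by 2.23 ± 0.23 log2 units (SE; adjusted p = 0.0015), from 6.51 ± 0.18 to 4.28 ± 0.34 (SD, n = 3 each). Whether its probes lie in the deleted part of the gene is not stated, so this fall is no firm check of the labels. The surfactant gene Sftpc stood at 12.2 ± 0.064 on control arrays and at 11.8 ± 0.49 on knockout arrays (SD over 3) and did not pass (adjusted p = 0.25), and thymus markers averaged between 2.61 and 3.04 on control arrays and between 2.80 and 2.95 on knockout arrays.

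Of the 5 genes, 3 were lower in the knockout lungs: Tek, Ptprb and Angpt2. Tek and Ptprb fell by 4.03-fold and 4.39-fold and Angpt2 by 2.36-fold. Tie1 and Angpt1 did not pass. Tie1 stood higher in the knockout by 0.57 log2 units and Angpt1 lower by 0.99. No member passed as higher (0 of 5 in limma, and 1, Tie1, at an unadjusted p under 0.05). The median log2 fold change of the 5 genes was −1.24, against 0.04 over all genes. The 3 lower members compare with 13% of all genes, and non-overlapping groups with the knockout below were found at the same 3 members, against 20% of all genes. In whole-lung RNA, fewer endothelial cells and less RNA per endothelial cell cannot be told apart.

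**Figure D1:**
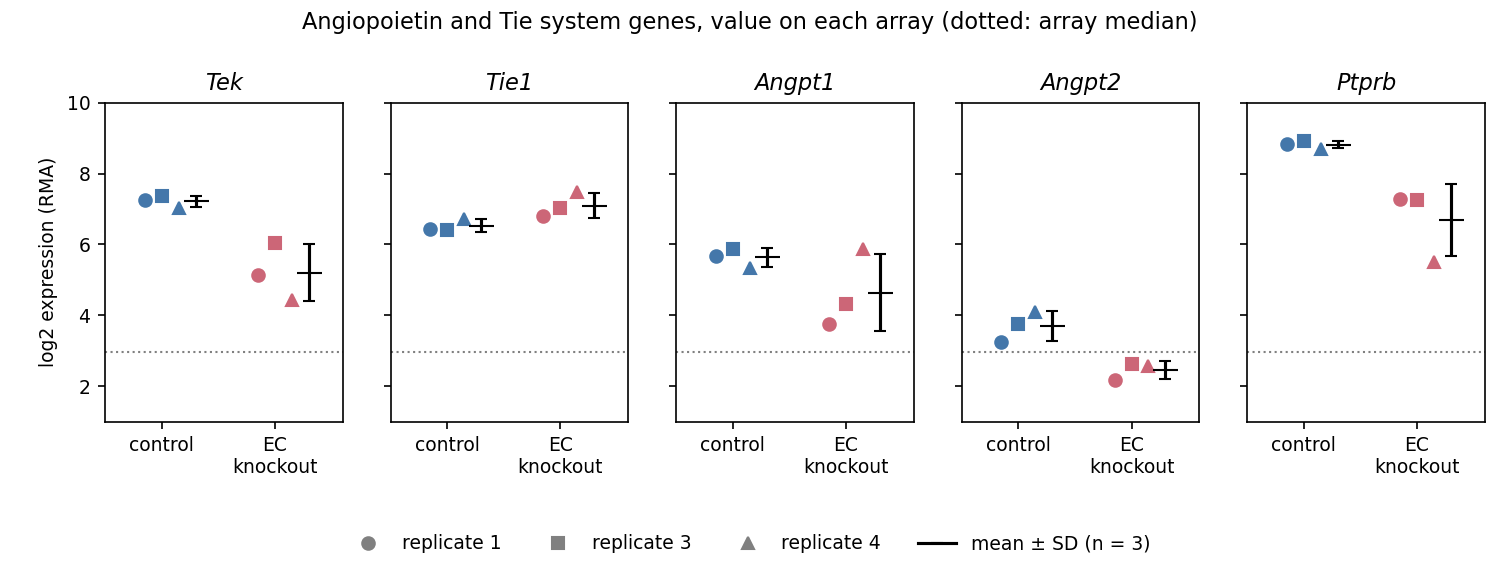
Log2 expression (RMA, vertical axis) of the 5 genes on each array, with control arrays in blue and EC knockout arrays in red. Marker shape gives the replicate number, the bar beside each group is its mean ± SD (n = 3), and the dotted line is the array median of 2.98. Tek, Angpt2 and Ptprb lie lower on every knockout array than on any control array. Tie1 lies slightly higher, and Angpt1 overlaps because knockout replicate 4 stands at 5.87.

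The receptors lay on opposite sides of 0, although only Tek passed. Tek (Entrez gene 21687, chromosome 4, 94739086 to 94874976 in GRCm38.p6) encodes the angiopoietin receptor. It measured 7.25, 7.36 and 7.03 log2 units on control replicates 1, 3 and 4, and 5.14, 6.04 and 4.43 on knockout replicates 1, 3 and 4. Every knockout array lay below every control array. The 3 knockout arrays spread over 1.62 log2 units and the 3 controls over 0.32, with knockout replicate 4 lowest. The log2 fold change was −2.01 ± 0.36 (SE; 95% interval −2.83 to −1.19; adjusted p = 0.0055). Only 0.587% of all genes had a log2 fold change as low or lower. With 1 array left out it ran from −1.62, without knockout replicate 4, to −2.43, without knockout replicate 3, and the call held in all 6 of those fits.

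Tie1 (Entrez gene 21846, chromosome 4, 118471191 to 118489849), the partner receptor, measured 6.44, 6.42 and 6.73 log2 units on control replicates 1, 3 and 4, and 6.80, 7.03 and 7.47 on the knockout arrays in the same order. The groups did not overlap, by a margin of 0.07 log2 units between control replicate 4 and knockout replicate 1. The log2 fold change of 0.57 ± 0.23 (SE; 95% interval 0.05 to 1.08) missed the threshold after adjustment (adjusted p = 0.10). Without knockout replicate 1 it was 0.72 and passed narrowly (adjusted p = 0.0495); without knockout replicate 4 it was 0.38 and did not pass. Values as high or higher were found at 18.6% of all genes.

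The gap between the receptors was therefore compared on each array, so that a shift common to an array cancels. Log2 Tie1 minus log2 Tek was −0.81, −0.94 and −0.30 on control replicates 1, 3 and 4, and 1.66, 0.99 and 3.04 on knockout replicates 1, 3 and 4. It was negative on all 3 control arrays and positive on all 3 knockout arrays, although the sign itself depends on the probe sets and only the change can be read. The change was 2.58 log2 units, a 5.97-fold shift of the ratio toward Tie1. An exact two-sided permutation test gave p = 0.10, the smallest that 3 against 3 arrays can give (0.30 after adjustment over the 3 pairs of genes compared). Each receptor alone already separated the groups, in opposite directions. The p was therefore fixed in advance by those values and adds no support to them. Leaving out 1 array at a time gave changes of 2.01 to 3.03.

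RefSeq's promoter table for GRCm38.p6, with 250 bases before and 50 after an annotated start, held 2 of the 5 members, Tek and Tie1. Both sequences are shown because the receptors lay on opposite sides of 0, although only Tek passed. Whether NFAT5 acts on either gene was not tested. The capitals mark GGAA on either strand (TTCC on the strand shown), the core of ETS family binding sites, a family known to drive endothelial genes. The Tek window is chr4:94739039-94739338 on the plus strand and the Tie1 window chr4:118489800-118490099 on the minus strand, each written 5′ to 3′ in the direction of transcription. The Tek gene begins at 94739086, so most of its window lies inside the gene, around a start downstream of the gene's first base. The Tie1 window is placed at the first base of its gene, 118489849. The windows therefore lie at unlike positions.
Tek: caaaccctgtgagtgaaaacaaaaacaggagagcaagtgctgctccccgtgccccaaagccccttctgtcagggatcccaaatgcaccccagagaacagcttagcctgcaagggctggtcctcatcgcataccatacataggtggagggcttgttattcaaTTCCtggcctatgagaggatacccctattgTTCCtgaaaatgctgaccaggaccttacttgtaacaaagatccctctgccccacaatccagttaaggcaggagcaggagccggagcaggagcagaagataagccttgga
Tie1: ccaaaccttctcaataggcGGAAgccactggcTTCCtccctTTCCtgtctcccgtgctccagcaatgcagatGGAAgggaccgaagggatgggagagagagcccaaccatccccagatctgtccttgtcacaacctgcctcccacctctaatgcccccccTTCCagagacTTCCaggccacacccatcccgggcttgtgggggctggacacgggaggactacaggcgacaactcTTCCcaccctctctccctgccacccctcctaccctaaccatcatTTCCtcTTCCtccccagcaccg
GGAA was found 2 times in the Tek window, with first bases at −89 and −59 where the start is 0, and 9 times in the Tie1 window. It occurs in 96.0% of the 32851 promoter windows in the table, with a median of 3 matches, so its presence sets neither gene apart. GGAAA, the NFAT family core, which contains GGAA, was found 0 times in the Tek window and 2 times in the Tie1 window, and 61.3% of windows hold it. The longer tonicity-responsive enhancer consensus, bound by NFAT5, was found in neither window and in 4.96% of all windows. AGATAA, bound by GATA factors, occurred 1 time in the Tek window, was not found in that of Tie1, and occurs in 11.2% of windows. GTAAACA, bound by FOXO factors and found in 3.65% of windows, and ACGTG, bound by hypoxia-inducible factors and found in 19.6%, occurred in neither. Both strands were searched. GC content was 52.0% for Tek and 60.3% for Tie1. These are matches of letters in a short window and say nothing of binding.

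**Figure D2:**
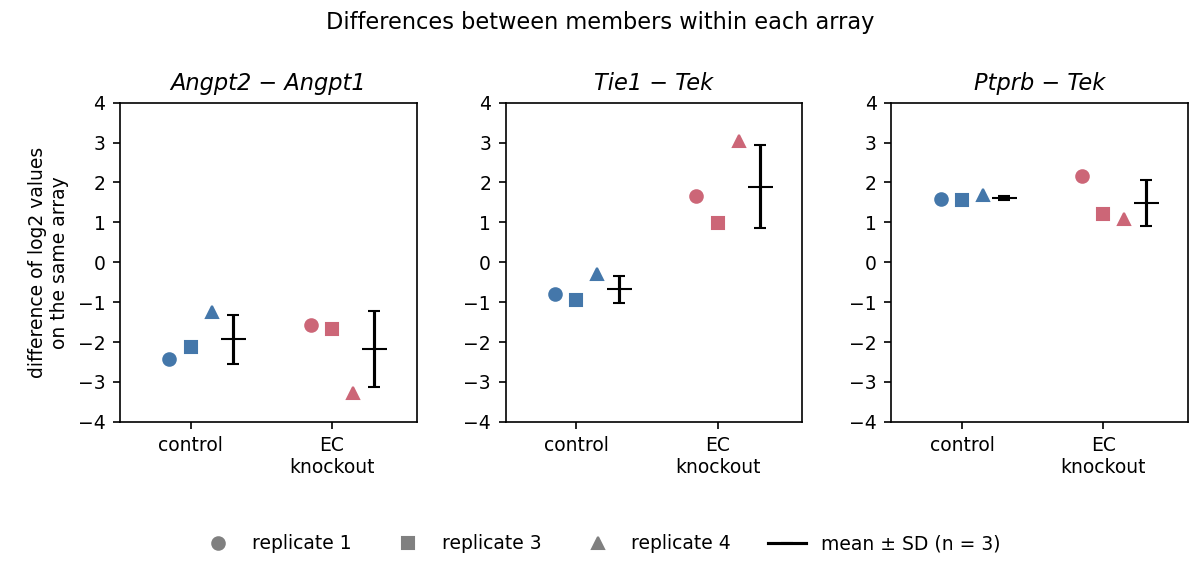
Differences between the log2 values of pairs of members on the same array (vertical axis) for control (blue) and EC knockout (red) arrays, with the mean ± SD beside each group (n = 3). Tie1 minus Tek moves from between −0.94 and −0.30 in controls to between 0.99 and 3.04 in knockouts, while the other pairs overlap between groups.

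Ptprb (Entrez gene 19263, chromosome 10, 116275502 to 116389538), whose product removes phosphate from TEK, showed the largest log2 fold change of the 5. It measured 8.82, 8.93 and 8.71 log2 units on control replicates 1, 3 and 4, and 7.29, 7.25 and 5.51 on the knockout arrays in the same order. The groups were well apart, and knockout replicate 4 again lay lowest, by 1.74 log2 units below its nearest neighbour. The log2 fold change was −2.14 ± 0.43 (SE; 95% interval −3.11 to −1.17; adjusted p = 0.0083), a value that 0.376% of all genes reached or passed on the low side. Without knockout replicate 4 it was −1.55 and still passed, as it did with any other single array left out.

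The receptor and its phosphatase were set against each other on each array. Log2 Ptprb minus log2 Tek was 1.57, 1.57 and 1.67 on control replicates 1, 3 and 4, which is nearly constant, and 2.15, 1.21 and 1.08 on the knockout arrays. The knockout values lay on both sides of the controls. The change of −0.13 log2 units was well within the spread of the knockout arrays (SD 0.58; exact two-sided permutation p = 0.80, adjusted 0.80). Its sign was not stable, at −0.46 without knockout replicate 1 and 0.07 without knockout replicate 4. The p does not show that they fell alike.

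The ligands differed in how uniform the knockout arrays were. Angpt2 (Entrez gene 11601, chromosome 8, 18690263 to 18741562), the ligand released by endothelium, measured 3.25, 3.76 and 4.10 log2 units on control replicates 1, 3 and 4, and 2.18, 2.63 and 2.59 on the knockout arrays in the same order. All knockout values lay below all controls, and the knockout arrays were here the tighter group. The log2 fold change was −1.24 ± 0.26 (SE; 95% interval −1.82 to −0.66; adjusted p = 0.0095). The call held with each array left out, between −1.47 and −1.04, with an adjusted p of at most 0.0475. Every knockout value lay between the arrays' lower quartile of 2.02 and their median of 2.98, close to an unknown background, which leaves the size of this fall uncertain.

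Angpt1 (Entrez gene 11600, chromosome 15, 42424667 to 42676977), the activating ligand, measured 5.68, 5.88 and 5.34 log2 units on control replicates 1, 3 and 4. On the knockout arrays it stood at 3.76, 4.31 and 5.87. Knockout replicates 1 and 3 were below every control, while knockout replicate 4 lay among the controls. The log2 fold change of −0.99 ± 0.47 (SE; 95% interval −2.04 to 0.07) did not pass (adjusted p = 0.16). Without knockout replicate 4 it was −1.60 ± 0.26 and passed (adjusted p = 0.0066), and without knockout replicate 1 it was −0.55. A single array thus decided the call.

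The values of both ligands on each array were set side by side. Log2 Angpt2 minus log2 Angpt1 was −2.43, −2.12 and −1.24 on control replicates 1, 3 and 4 and −1.58, −1.68 and −3.28 on knockout replicates 1, 3 and 4, and the groups overlapped. Because Angpt2 lay close to an unknown background on the knockout arrays, the change in this difference has no firm size or sign and does not measure the ligand balance.

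**Figure D3:**
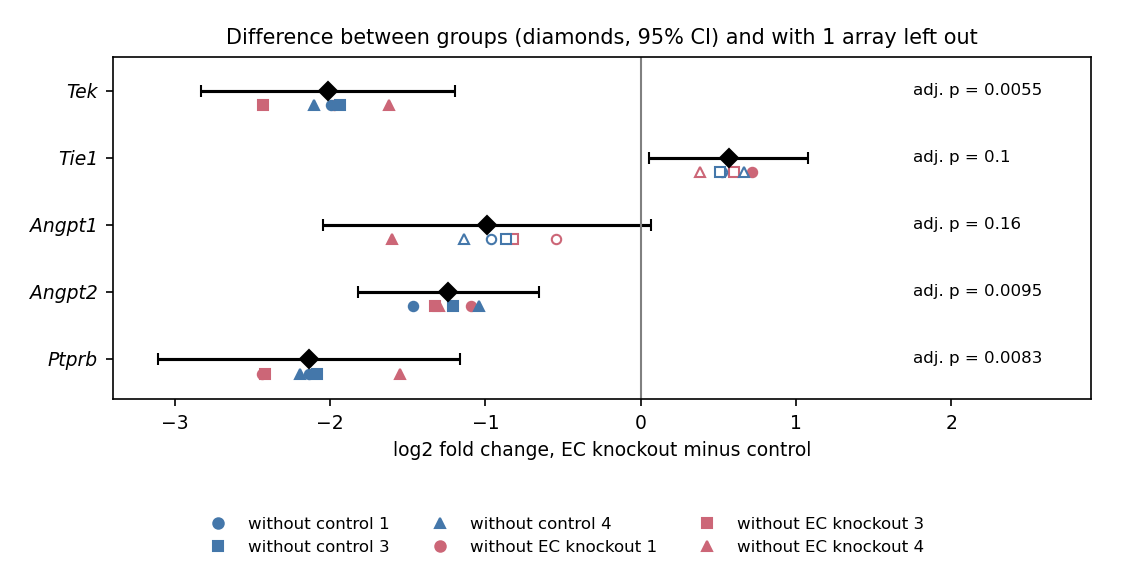
Log2 fold change of each member, EC knockout minus control (horizontal axis), as black diamonds with 95% intervals, and below each the value with 1 array left out, in blue for a control and red for a knockout array. Filled symbols passed at an adjusted p under 0.05 and open ones did not. Tek, Angpt2 and Ptprb passed in every one of the 6 left-out fits, Angpt1 only without knockout replicate 4, and Tie1 only without knockout replicate 1.

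Knockout replicate 4 carried the extremes at 4 members: the lowest Tek and Ptprb and the highest Tie1 and Angpt1 of the knockout group. Its snoRNA median (6.43) was the lowest of the knockout group and its mean pan-endothelial marker level (6.96) the highest of the 6 arrays. Profiles were also set against each other as the root mean square difference, over the 6 arrays, of each gene's log2 value minus its control mean. Tek and Ptprb were the closest pair of members, at 0.35 log2 units, followed by Angpt1 and Angpt2 at 0.68 and Tek and Angpt2 at 0.78. Tie1 and Ptprb were the farthest apart, at 2.07.

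By the same measure, over 11039 other protein-coding genes with a mean level above the median, the genes with the profile most like Tek were Arfgef1, an exchange factor for ARF proteins (0.05), the histone methyltransferase gene Kmt2c (0.11) and Fnbp1l (0.13). Ptprb was followed most closely by the kinase gene Wnk1 (0.08), the spectrin gene Sptbn1 (0.11) and Efcab14 (0.13). Arfgef1 had a log2 fold change of −1.98 and Wnk1 of −2.05. Tie1 was most like Psmb9, an immunoproteasome subunit (0.05), Abi3 (0.05) and Slc45a3 (0.06), none of which passed (log2 fold changes 0.54 to 0.61). For Angpt1 the nearest were Cops2, a subunit of the COP9 signalosome (0.12), Timm21 (0.12) and the retromer gene Vps35 (0.14), which did not pass either. For Angpt2 they were Vwa3a (0.17), Pigh (0.18) and the cyclin gene Ccnb2 (0.18), which all fell. All 6 arrays enter this measure, so a like difference between the groups is by itself enough to bring profiles close.

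Differences between the groups varied with gene span over protein-coding genes, but the members did not follow the order of their spans. Angpt1, the longest, stood at −0.99 and the shorter Angpt2 at −1.24. RefSeq spans were 136 kb for Tek, 114 kb for Ptprb, 252 kb for Angpt1, 51.3 kb for Angpt2 and 18.7 kb for Tie1. The shortest gene was the only member above 0. In 5 equal bins of protein-coding genes, the median log2 fold change was 0.06 in the bin of Tie1 (12.9 to 26.3 kb), −0.14 in that of Angpt2 (26.3 to 60.6 kb) and −0.33 in the longest bin, which holds Tek, Ptprb and Angpt1. In that longest bin 31.5% of genes fell and 5.41% rose. Within their own bins, 1.4% of genes were as low as Tek, 0.838% as low as Ptprb, 11.2% as low as Angpt2 and 23.1% as low as Angpt1, and 21.4% were as high as Tie1. With each array's trend with span removed, Tek stood at −1.62 ± 0.33 (SE; adjusted p = 0.0083), Ptprb at −1.75 and Angpt2 at −0.97, which all passed, and Angpt1 at −0.64 and Tie1 at 0.50, which did not.

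**Figure D4:**
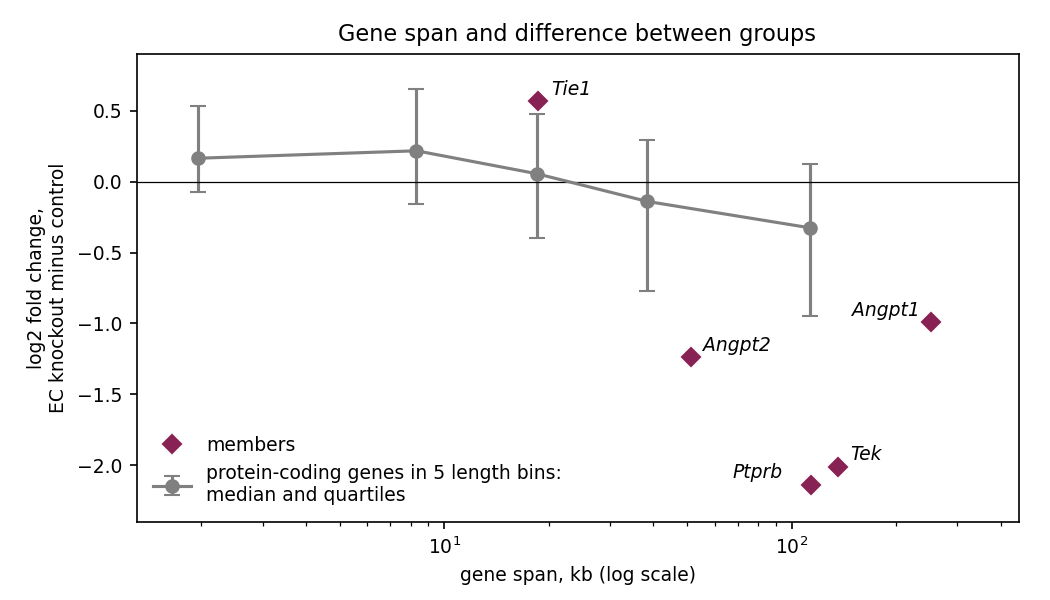
Log2 fold change, EC knockout minus control (vertical axis), against gene span in kb (log scale). Grey points and bars are the median and quartiles of protein-coding genes in 5 equal bins of span, and diamonds are the 5 members. Tek, Ptprb and Angpt2 lie below the lower quartile of their bins, Angpt1 just below it, and Tie1 above the upper quartile.

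Endothelial markers outside the Tie system moved both ways. Among the 18 pan-endothelial genes measured, 5 passed upward and 5 downward, and the list's median was 0.31 log2 units. The junction gene Cdh5, whose product is the partner of VE-PTP, stood at −1.52 ± 0.26 and Pecam1 at −1.59 ± 0.34, while the clotting factor carrier gene Vwf stood at 1.61 ± 0.24 (SE, n = 3 per group; all 3 passed and were named after their values were seen). The mean log2 level of the list overlapped between groups, at 6.66 to 6.87 in controls and 6.55 to 6.96 in knockouts. On the linear scale its summed level was lower in knockouts, at 2827 to 3203 against 3734 to 4516 in controls. Such sums, here and below, weigh the brightest probe sets most and do not measure cell content. Of the 18 genes, 10 stood above 0 and 8 below. None of the 18 had a mean level below the lower quartile. When each array was centred on the mean of these markers, a scaling chosen after seeing the data, Tek stood at −1.99, Ptprb at −2.12 and Angpt2 at −1.22, and all passed. Angpt1 stood at −0.97 and Tie1 at 0.59 there, and neither passed.

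Markers of cells that make ANGPT1 also went both ways. Of 11 pericyte genes, 3 rose and 4 fell, and their mean level was 5.15 to 5.19 on control and 5.02 to 5.24 on knockout arrays. Of 11 fibroblast genes 3 rose and 2 fell, but the list's median was −0.70 log2 units, with 7 genes below 0 and 4 above. Their mean levels were 6.55 to 6.63 on control and 6.31 to 6.36 on knockout arrays, without overlap. Of 9 smooth muscle genes 1 rose and 0 fell (0 also at an unadjusted p under 0.05 in limma), and of 7 platelet and megakaryocyte genes 1 fell. Summed on the linear scale, pericyte markers reached 649 to 713 on control and 511 to 652 on knockout arrays, which overlapped. The summed fibroblast level was 1612 to 1684 and 1196 to 1518, without overlap. Smooth muscle markers had sums of 473 to 668 and 656 to 757 and mean log2 levels of 5.16 to 5.63 and 5.54 to 5.84. Both smooth muscle measures overlapped between groups. The part of these lists in the values of Angpt1 was not tested.

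Markers of other lung cells went both ways, and their counts stand beside 13% of all genes lower and 12.5% higher. Of 9 alveolar macrophage genes 1 fell and 1 rose (6 lower and 1 higher at an unadjusted p under 0.05 in limma). Their mean level was 5.08 to 5.19 on control and 4.39 to 4.71 on knockout arrays, and their summed linear level 559 to 650 and 317 to 451, so that the groups did not overlap. Of 9 alveolar type 2 genes 2 fell and 1 rose. Their mean level was 8.83 to 8.99 on control and 8.42 to 8.82 on knockout arrays, and their sum 9892 to 11053 and 6070 to 9509, again without overlap. Of 8 alveolar type 1 genes 3 fell and 2 rose, and their sums overlapped, at 2466 to 2984 and 2508 to 3227. Of 8 ciliated cell genes 3 fell and 2 rose, while their sum was higher in knockouts, at 402 to 572 against 257 to 304 in controls. The part of these markers in the falls of Tek, Ptprb and Angpt2 was not tested.

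Signalling genes downstream of TEK were divided. Of 29 listed genes, 24 were measured here, of which 7 rose and 8 fell, and the list's median was −0.32 log2 units. Those of smallest p were the RAS exchange factor gene Sos1 at −1.42 ± 0.18, the PI3 kinase regulatory subunit Pik3r2 at 1.41 ± 0.19, the kinase Akt2 at 1.34 ± 0.19 and the adaptor Dok1 at 1.19 ± 0.18 (SE, n = 3 per group; adjusted p from 0.0023 to 0.0029). Named after their values were seen, other members of this PI3 kinase branch also moved apart. Pik3ca, the catalytic subunit, stood at −1.60 and Pik3r1, the major regulatory subunit, at −1.69, while Akt1 stood at 0.99, and these 3 passed. The endothelial nitric oxide synthase gene Nos3 stood at 0.28 and did not pass (adjusted p = 0.32). The 8 falls became 3 without any single control array, and the 7 rises stayed at 7 in all 6 fits with 1 array left out. Calls over all genes also dropped, from 6292 to 3141, 2882 and 4457 without control replicates 1, 3 and 4.

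FOXO factors and the genes they are known to activate, which TEK signalling through AKT restrains, fell at 4 of 18 genes and rose at 1, with a median of −0.44. The redox regulator gene Txnip stood at −0.998 ± 0.188 (adjusted p = 0.0065), the ubiquitin ligase gene Fbxo32 at −0.999 ± 0.225 (0.013), Sesn3 at −1.01 ± 0.26 (0.022) and Foxo4, itself one of the factors, at 0.90 ± 0.27 (0.038; SE, n = 3 per group). Foxo1, the factor best known downstream of TEK and an activator of Angpt2, stood at −0.37 and did not pass (adjusted p = 0.33; named after its value was seen). The 4 falls became 1 without control replicate 1 or 4 and 2 without control replicate 3 or knockout replicate 4. Calls over all genes dropped in these fits as well. At an unadjusted p under 0.05 in limma, the falls were 6 with all arrays. They were 3, 7 and 4 without control replicates 1, 3 and 4, and 7 without knockout replicate 4. Txnip kept its call in all 6 fits with 1 array left out. Foxo4 lost its call without any array but knockout replicate 3, at 0.73 to 1.03. Sesn3 lost its own without any control array or knockout replicate 4, at −1.05 to −0.81, and Fbxo32 without control replicate 1 or 4, at −0.93 and −0.91.

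Transcription factors known to act on Tek, Tie1 or Angpt2 were lower at 5 of 14 and higher at 2, with a median of −0.19. The flow-responsive factor gene Klf2 rose by 1.50 ± 0.26 (adjusted p = 0.0047). Epas1, which encodes HIF-2α, stood at −0.99 ± 0.21, Hif1a at −1.42 ± 0.31 and the ETS factor gene Fli1 at −0.82 ± 0.18 (SE, n = 3 per group; adjusted p from 0.011 to 0.012). All arrays came from hypoxia, so these values do not measure induction. The 5 falls became 0 in limma without control replicate 3, where 5 stayed at an unadjusted p under 0.05 and the 3 named falls had adjusted p from 0.0519 to 0.0612, and 2 without control replicate 1. The 2 rises became 1 without control replicate 1 or 3 and 3 without knockout replicate 1. Without control replicate 1, Hif1a stood at −1.30 and Fli1 at −0.80, and neither passed.

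Integrins and phosphatases gave mixed counts as well. Of 5 integrin chains that bind ANGPT2, Itgb1 (−1.38 ± 0.25; adjusted p = 0.0053) and Itgav (−0.81 ± 0.23; 0.031) fell and Itgb5 rose (0.78 ± 0.25; 0.046). The list's median was 0.61 log2 units, with 3 genes above 0 and 2 below. Itga5 at 1.10 ± 0.36 (adjusted p = 0.0518) and Itgb3 at 0.61 ± 0.26 (0.118) did not pass (named after their values were seen). At an unadjusted p under 0.05 in limma, 3 of the chains were higher and 2 lower. Itgb1 passed with each array left out. Itgav lost its call without control replicate 1 or 3 or knockout replicate 1 or 4, at −0.76 to −0.69, and Itgb5 without any array but knockout replicate 1, at 0.55 to 0.85. The R3 phosphatases that share the structure of VE-PTP did not pass at any of 4 genes (0 at an unadjusted p under 0.05 in limma), with Ptprj at −0.50 ± 0.28 and Ptpro at −0.26 ± 0.24 (SE, n = 3 per group). Their mean level was low, at 3.22 to 3.32 on control and 3.01 to 3.18 on knockout arrays. For 1 of the 4 it lay below the lower quartile. At levels near an unknown background, a missing call says little.

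Of 14 measured receptor phosphatases outside that group, 3 rose and 5 fell, with a median of −0.53. Ptprk stood at −1.47 ± 0.23, the leukocyte phosphatase gene Ptprc at −1.53 ± 0.29, Ptprs at 1.13 ± 0.21 and Ptprn at 0.79 ± 0.18 (SE, n = 3 per group; adjusted p from 0.0035 to 0.014). The 5 falls became 2 without control replicate 1 or 3 and 3 without control replicate 4 or knockout replicate 4. The 3 rises became 1 without control replicate 1 or 3, where Ptprn stood at 0.77 and did not pass.

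Other ligands and modulators of the receptors gave 1 fall and 0 rises among 9 measured genes of 11 listed (1 higher at an unadjusted p under 0.05 in limma). Adam17, a sheddase of membrane proteins, stood at −1.20 ± 0.35 (adjusted p = 0.034), but passed with 1 array left out only in the fit without knockout replicate 3 (−1.65), and otherwise stood at −1.25 to −0.96. Angptl7 stood at 0.55 ± 0.23 and did not pass, except without knockout replicate 4 (0.74, adjusted p = 0.040). Angpt4, the third angiopoietin, stood at −0.07 and did not pass (adjusted p = 0.88; named after its value was seen).

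Receptor tyrosine kinases outside the Tie family rose at 3 of 10 and fell at 1. The arteriovenous receptor gene Ephb4 rose by 1.28 ± 0.20 (adjusted p = 0.0037), Epha2 by 1.19 ± 0.22 (0.0059) and Fgfr1 by 1.04 ± 0.22 (0.011), and Met stood at −1.68 ± 0.48 (0.033; SE, n = 3 per group). Met did not pass without control replicate 1, 3 or 4, at −1.78 to −1.62, nor Fgfr1 without control replicate 1, at 0.90. The VEGF receptor genes Kdr at −0.91 and Flt1 at −0.61 did not pass (named after their values were seen).

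Over the 8 pathway lists together, 97 genes were measured, of which 17 rose and 26 fell, with a median log2 fold change of −0.23. These shares stand beside 12.5% of all genes higher and 13% lower, and were not tested against them. With the trend in gene span removed, the lists held 22 higher and 13 lower. That fit covered protein-coding genes only, of which 5095 passed, not split here by direction. The turn can therefore not be read as particular to these lists. The 26 falls became 9 without control replicate 1, 8 without control replicate 3 and 13 without control replicate 4. Calls over all genes dropped in the same fits, from 6292 to 3141, 2882 and 4457. The 17 rises became 11 without control replicate 1.

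**Figure D5:**
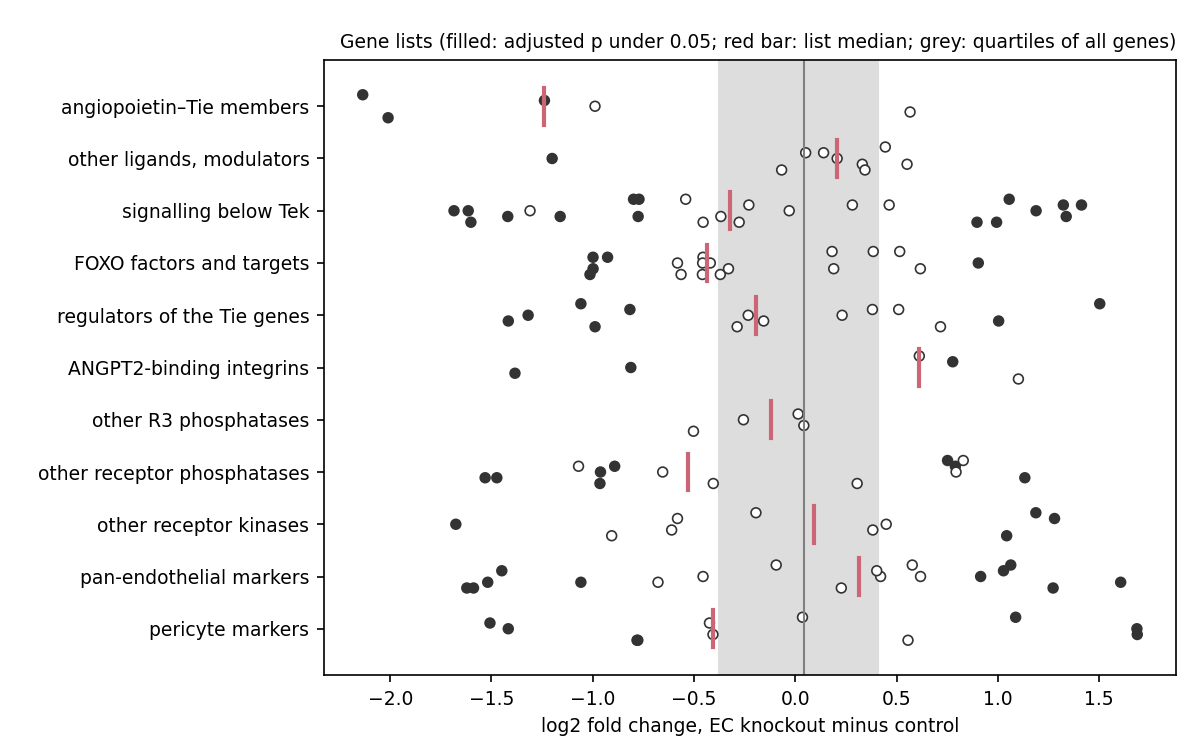
Log2 fold change, EC knockout minus control (horizontal axis), of every measured gene in the members, the 8 pathway lists and the endothelial and pericyte marker lists. Filled points passed at an adjusted p under 0.05, red bars are list medians, and the grey band spans the quartiles of all genes, −0.38 to 0.41. The members' median of −1.24 lies left of the band, while most lists hold filled points on both sides of it.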

How the data were processed

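RNA of whole lung on 3 control and 3 EC knockout arrays was analysed. The authors deposited log2 values for each probe set, made with RMA per the submitters' processing notes, which name no version. Quartiles of the columns differ by less than 0.001 log2 units. Of 25428 probe sets, 24705 had 1 platform symbol and 723 were unnamed here. The brighter probe set stood for the 1 symbol that had several, leaving 24704 genes. Spans and biotypes came from RefSeq GRCm38.p6, matched for 24673 probe sets. The labels do not say that each array is a separate mouse, so p-values measure the spread between these arrays, and 3 arrays a group limit the precision.

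Groups were compared with limma 3.58.1 in R 4.3.3 (lmFit, eBayes), with no filter, p adjusted by Benjamini-Hochberg over all genes, and calls at 0.05. The code was tested on simulated data. Member pairs were compared within arrays by exact permutation. Genes named were the 5 members, Nfat5, up to 4 of smallest p past the threshold in each pathway list (the 2 of smallest p where fewer than 2 passed), and the 3 genes of most like profile per member. Members and lists were chosen with earlier results of these data known, so they give no independent support. Alternatives covered filters, probe set handling, scaling, variance model, array weights, a replicate block, Xist or median snoRNA level as a covariate, gene span (lowess, span 0.3), thresholds and each array left out.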

Additional observations from a re-analysis of the deposited data

How the results depend on the processing

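Leaving out 1 array, the log2 fold change ranged from −2.43 to −1.62 for Tek, −2.44 to −1.55 for Ptprb, −1.47 to −1.04 for Angpt2, −1.60 to −0.55 for Angpt1 and 0.38 to 0.72 for Tie1. The members past the threshold were then 3 to 4 lower and 0 to 1 higher, and the pathway list genes 8 to 28 lower and 11 to 17 higher. Within-array changes ranged from 2.01 to 3.03 for Tie1 minus Tek, −0.46 to 0.073 for Ptprb minus Tek and −0.55 to 0.30 for Angpt2 minus Angpt1. Tek, Ptprb and Angpt2 kept their calls in every alternative except the next. With the median snoRNA level, which separates the groups, as a covariate, 0 members passed (1 lower at an unadjusted p under 0.05 in limma), and 0 of all genes (3576 unadjusted). Tek stood there at −1.93 ± 1.53 (SE), Angpt2 at −0.38, Ptprb at −4.75 and Angpt1, reversed, at 2.68; pathway list genes were 0 lower and 0 higher (11 and 5 unadjusted). Also reversed there were Adam17 (0.37), Angptl7 (−0.78), Foxo4 (−0.41), Itgav (0.13), Ptprc (0.41), Cops2 (2.47), Timm21 (2.57) and Vps35 (2.34). The cause was not tested, and the standard errors of the 5 members were several times wider. Ptpro reversed with the span trend removed (0.10), where pathway list falls were 13. Pathway list genes were 9 lower and 10 higher with Xist as a covariate, and 7 and 11 at a threshold of 0.01. All genes past the threshold were 6292, and 2827 with Xist as a covariate, 2560 at 0.01, 3141 without control replicate 1 and 2882 without control replicate 3. Replicate numbers did not pair the arrays: deviations of same-numbered arrays correlated at 0.06, −0.01 and 0.004, and not every array correlated best with its own number. With the replicate block Tek stood at −2.01 (adjusted p = 0.0072) and 6082 genes passed, with 3 members lower. Among 43 other named genes, each one that passed in the main fit lost its call with the snoRNA covariate, where 0 of all genes passed. With no detection calls, values near the lower quartile, those of Angpt2 in knockouts among them, have an unknown background.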
